A study of Mus musculus with 90 samples.

Results

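The genes of the urea cycle analysed here are *Nags*, *Cps1*, *Otc*, *Slc25a15*, *Ass1* and *Asl*. They were picked by symbol, as enzymes of the cycle, the enzyme that makes its activator and the mitochondrial ornithine carrier, and they are 6 of the 27654 gene IDs of the deposited count tables. The cycle turns toxic ammonia into urea for excretion, and in mammals the whole cycle runs mainly in hepatocytes, most of all in those near the portal vein. In the mitochondrion *Nags* makes N-acetylglutamate, which *Cps1* needs to join ammonia and bicarbonate, and *Otc* passes the product on to ornithine to give citrulline, while the carrier encoded by *Slc25a15* exchanges ornithine for citrulline across the inner membrane. In the cytosol *Ass1* and *Asl* turn citrulline and aspartate into arginine and fumarate, and transcription of these enzymes is known to respond to glucagon, glucocorticoids and the supply of dietary protein.

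Livers of adult male C57BL/6J mice on chow were sequenced as polyA RNA, in 90 libraries of single mice, to ask how the glucocorticoid receptor (GR, encoded by *Nr3c1*) takes part in the response of the liver to caloric restriction. Restricted mice (cal. res.) were brought stepwise to 40% less calories and fed when the lights went off at zeitgeber time 12 (ZT12, in hours after lights on), and control mice (ctrl.) ate freely until a final week of night-restricted feeding. In the diet experiment WT livers were taken at ZT12 from 3 cal. res. and 3 ctrl. mice, although the titles of these 3 controls say AL where their treatment label says night-restricted feeding. In the CORT experiment WT mice on night-restricted feeding received corticosterone (3 mice) or, by the study's methods, vehicle (3 mice) into the peritoneum daily for a week, and livers were taken at ZT12. The hour of injection is described differently in different places, so the time from the last dose to the taking of the livers is not settled.

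The time series holds 78 livers at 6 time points 4 h apart. Its WT mice carry the floxed alleles alone (GRfl/fl, 18 cal. res. and 22 ctrl. mice), and its GR LKO mice carry them with Alb-Cre (GRfl/fl x Alb-Cre, 18 cal. res. and 20 ctrl. mice), with 3 or 4 mice in each group. The albumin promoter drives Cre in hepatocytes, so the other cells of the liver keep the receptor, and mice with Alb-Cre but without floxed alleles were not analysed here. The diets of the time series were sequenced as libraries of separate number series, so diet and library batch cannot be told apart there, while genotypes were compared within a diet. The total estimated count per library ran from 36442195 to 39492146 in the diet experiment and from 13739631 to 16077943 in the CORT experiment. In the time series it ran from 14235473 to 20788575 for cal. res. and from 10057544 to 17089004 for ctrl. livers. The least abundant member, *Nags*, had at least 644 counts in each library, and each of the others at least 2765.

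Hepatocyte markers dominated the libraries. The 7 markers *Alb*, *Apoa1*, *Apob*, *Ttr*, *Trf*, *Fgb* and *Hnf4a* summed in cal. res. WT livers to 123000 CPM (counts scaled to library size) at the lowest, 144000 at the median and 180000 at the highest of 18 mice, with *Alb* the most abundant. The 6 endothelial markers summed to 149, 171 and 212 CPM in the same mice, and the 7 Kupffer cell and macrophage markers to 39.5, 117 and 279 CPM. Neutrophil markers summed to a median of 0.702 CPM there. Exocrine pancreas markers summed to 615 CPM in cal. res. WT replicate 3 at ZT12 and to 311 CPM in ctrl. WT replicate 2 at ZT16, and to 2.32 CPM at most in each of the other libraries, so the genotype results at these time points and the cal. res. mean are given below without these livers, and the other results that use them at the end. Ctrl. GR LKO replicate 1 at ZT20 also stood apart, with pericentral hepatocyte markers at 3110 CPM (8190 and 6950 in the other 2 livers of its group) and stellate cell markers at 361 CPM (224 and 176). Its stellate cell and cholangiocyte sums were the highest of the 20 ctrl. GR LKO livers, and calls that changed without it are named below. Cal. res. GR LKO replicate 1 at ZT20 had the highest stellate cell (454 CPM, 273 and 246 in its group), lymphocyte (26.4, 7.51 and 6.7) and cholangiocyte sums of its arm, with Kupffer cell and macrophage markers at 246 CPM (89.5 and 83.8). Ctrl. WT replicate 3 at ZT0 had pericentral hepatocyte markers at 4320 CPM (6980 and 6320), lymphocyte markers at 22.8 CPM (8.97 and 7.54) and stellate cell markers at 312 CPM (207 and 226), and cal. res. GR LKO replicate 2 at ZT0 had erythroid markers at 3550 CPM (549 and 394). Cal. res. WT replicate 2 at ZT8 had Kupffer cell and macrophage markers at 279 CPM (119 and 170) and cholangiocyte markers at 89.7 CPM (45.2 and 44). Replicate 1 of that arm at ZT4 had lymphocyte markers at 17.2 CPM (6.04 and 6.69), and its replicate 2 at ZT0 had erythroid markers at 1140 CPM (291 and 379). Calls without these last 3 livers are not singled out below. All these livers were picked from the marker sums without a test, and others may stand apart too.

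Per kilobase of transcript, the members spanned a wide range of levels. Lengths are those of the longest principal transcript in GENCODE vM21, 1696 bases for *Ass1* and 5555 for *Cps1*, and the annotation behind the counts is not known. The order of these 2 genes rests on the lengths, since by CPM alone the medians in cal. res. WT livers were 5067 for *Ass1* and 6799 for *Cps1*, with *Cps1* above in 17 of 18 mice. With these lengths *Ass1* had the highest level in cal. res. WT livers, with 2570 CPM per kb in the lowest, 2990 in the median and 4530 in the highest of 18 mice. *Cps1* followed with 980, 1220 and 1750 CPM per kb, and its range lay apart from those of the genes above and below it. *Asl* stood at 193, 274 and 618 CPM per kb and *Otc* at 168, 184 and 228 CPM per kb, with overlapping ranges and *Asl* above *Otc* in 17 of the 18 mice. *Slc25a15* was measured at 62.6, 105 and 192 CPM per kb and *Nags* at 22.3, 31.0 and 45.4 CPM per kb. *Nags* was the lowest in all 18 of these mice. In ctrl. WT livers the medians ran in the same order, from 2340 CPM per kb for *Ass1* to 35.2 CPM per kb for *Nags*, although *Asl* was above *Otc* in only 13 of 22 mice, with overlapping ranges. In GR LKO livers *Otc* and *Asl* traded places: the median level of *Otc* was 206 CPM per kb and that of *Asl* 167 CPM per kb under cal. res., with *Otc* above *Asl* in 15 of 18 mice. In ctrl. GR LKO livers *Otc* was above *Asl* in 16 of 20 mice. The 6 members together took 1.23% to 1.48% of all counts in cal. res. WT livers, as means of the 6 time points.

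Caloric restriction raised all members but *Otc* at ZT12 in the diet experiment. *Nags*, the source of the activator, measured 44.3, 44.6 and 52.8 CPM in the 3 ctrl. livers and 60.6, 70.1 and 56.9 CPM in the 3 cal. res. livers. *Cps1*, which commits ammonia to the cycle, measured 2790, 3129 and 4341 CPM in ctrl. and 7607, 6433 and 7301 CPM in cal. res. livers. Every cal. res. liver was above every ctrl. liver for both genes, and for *Cps1* the ctrl. replicate 3 stood above the other ctrl. livers. *Slc25a15*, the ornithine carrier, measured 228, 269 and 272 CPM in ctrl. and 467, 459 and 549 CPM in cal. res. livers. *Otc* measured 357, 349 and 370 CPM in ctrl. and 384, 317 and 339 CPM in cal. res. livers. The carrier was separated between the diets, while the *Otc* values of the diets were interleaved.

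Of the cytosolic enzymes, *Ass1*, which joins citrulline and aspartate, measured 1829, 2007 and 2564 CPM in ctrl. and 4619, 4996 and 5829 CPM in cal. res. livers. *Asl*, which releases arginine and fumarate, measured 440, 476 and 550 CPM in ctrl. and 1169, 1126 and 1103 CPM in cal. res. livers. Both genes were higher in each cal. res. liver than in each ctrl. liver. The share of all counts held by the 6 members was 0.603%, 0.658% and 0.832% in ctrl. and 1.37%, 1.31% and 1.43% in cal. res. livers.

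The log2 fold change of cal. res. over ctrl. was largest for *Ass1*, at 1.27 (SE 0.148, edgeR adjusted p = 0.000787, which stands here and below for the Benjamini-Hochberg value from edgeR's quasi-likelihood fit over the genes tested). It was 1.21 for *Asl* (SE 0.0976, edgeR adjusted p = 0.000235) and 1.06 for *Cps1* (SE 0.168, edgeR adjusted p = 0.00245). *Slc25a15* rose by 0.94 (SE 0.107, edgeR adjusted p = 0.000723) on the log2 scale. *Nags* had the smallest change among the called members, 0.40 (SE 0.106, edgeR adjusted p = 0.0181). For *Otc* the log2 fold change was -0.05, with a 95% interval of -0.22 to 0.125 (edgeR adjusted p = 0.686). A gene is named as called where its adjusted p is under 0.05, and 5 of the 6 members were called higher, where 23.5% of the 13062 genes tested were called higher. The groups did not overlap for 5 members, and for 59% of all genes tested. The median log2 fold change was 0.998 over the members and -1.8e-06 over all genes. The call of *Nags* was lost without ctrl. replicate 1 (edgeR adjusted p = 0.0691), without ctrl. replicate 2 (0.0704) or without cal. res. replicate 2 (0.0605).

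**Figure D1:**
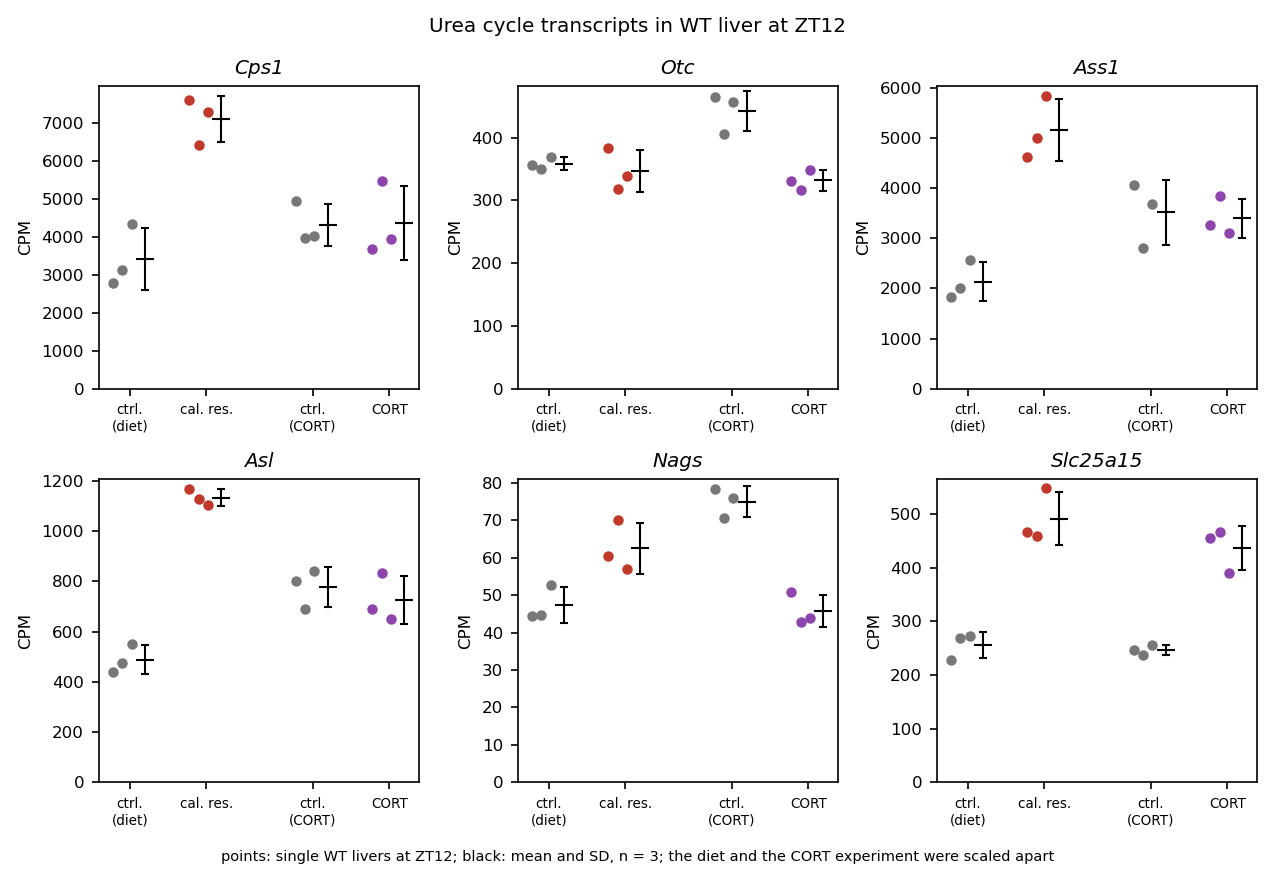
CPM (vertical axis, from 0) of the 6 members in WT livers at ZT12, with the diet experiment and the CORT experiment side by side in each panel; points are single livers and black marks the mean and SD of 3. The 3 cal. res. livers lie above the 3 ctrl. livers for 5 members, and with CORT *Slc25a15* is higher and *Nags* and *Otc* are lower in all 3 livers.

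Markers of cell types also moved with the diet. Of the hepatocyte markers 3 of 7 were called higher and none lower, and they summed to 96700, 97100 and 102000 CPM in ctrl. and 166000, 171000 and 176000 CPM in cal. res. livers. Of the periportal hepatocyte markers 4 of 8 were called higher and 2 lower. They summed to 6070, 5110 and 6490 CPM in ctrl. and 11500, 10800 and 12000 CPM in cal. res. livers, with *Pck1* the most abundant. Of the pericentral hepatocyte markers 1 of 7 was called higher and 2 lower. Of the endothelial markers 4 of 6 were called higher, and they summed to 116, 149 and 153 CPM in ctrl. and 194, 194 and 222 CPM in cal. res. livers, with *Clec4g* the most abundant and none at 0. Of the stellate cell markers 2 of 6 were called higher and 1 lower, with sums of 199, 213 and 168 CPM in ctrl. and 282, 249 and 286 CPM in cal. res. livers, *Dcn* the most abundant and none at 0. In bulk liver, fewer cells of a type and less RNA per cell cannot be told apart, and the part of these markers in the change of the urea cycle genes was not tested.

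The neighbouring steps of nitrogen metabolism did not move as a block with the diet. Of all 13062 genes tested 3073 were called higher and 3082 lower. Of 12 genes tested that supply ammonia, aspartate and bicarbonate, 4 were called higher and 4 lower, with a median log2 fold change of 0.0888. *Got1*, the cytosolic aspartate aminotransferase, rose by 1.75 (SE 0.173, edgeR adjusted p = 0.000446), *Fh1*, fumarase, by 0.82 (0.115, 0.00156) and *Glud1*, glutamate dehydrogenase, by 0.66 (0.0887, 0.00131). *Car5a*, the mitochondrial carbonic anhydrase, fell by 0.84 (edgeR adjusted p = 0.00544), *Glul*, glutamine synthetase, by 0.46 (0.0226) and *Gpt2*, an alanine aminotransferase, by 0.30 (0.0286) on the log2 scale. Of 10 genes tested that use or carry arginine and ornithine outside the cycle, *Slc25a29* was called higher (0.69, edgeR adjusted p = 0.0132) and *Azin1* (-0.90, 0.000334), *Gatm* (-0.70, 0.00875) and *Agmat* (-0.33, 0.0116) were called lower, and the median was -0.309. Of the 4 tested transporters of amino acids, urea or ammonia, *Slc38a4* and *Slc38a2* were higher (1.61 and 1.17, edgeR adjusted p = 0.0434 and 0.00696) and *Aqp9* and *Slc38a3* lower (-0.85 for both, 0.00191 and 0.0143). Of 10 regulators 5 were called higher, led by the coactivator *Ppargc1a* (1.94, edgeR adjusted p = 6.4e-05), *Klf15* (1.15, 0.00132) and *Cebpb* (0.71, 0.00367), and 3 lower, *Cebpa* (-0.61, 0.0124), the bile acid receptor *Nr1h4* (-0.49, 0.0116) and the glucagon receptor *Gcgr* (-0.41, 0.0104). All 7 well-known GR target genes were called higher, with a median of 1.52, led by *Tat* (2.96, edgeR adjusted p = 0.000122), *Fkbp5* (2.36, 0.00049) and *Tsc22d3* (1.92, 0.00125). *Nr3c1* itself measured 88.7, 90.3 and 95.7 CPM in ctrl. and 84.3, 88.4 and 86.6 CPM in cal. res. livers (log2 fold change -0.08, edgeR adjusted p = 0.317).

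In the WT livers of the time series at ZT12, where diet and library batch cannot be told apart, the same contrast was 0.72 for *Asl* (edgeR adjusted p = 0.00221), 0.74 for *Ass1* (0.00397), 0.74 for *Cps1* (0.00101) and 0.94 for *Slc25a15* (0.000463). *Otc* stood at -0.14 (edgeR adjusted p = 0.25) and *Nags* at -0.18 (0.277), against the 0.40 that *Nags* showed in the diet experiment. *Nags* was thus the member whose direction differed between these separate sets of mice, and 4 of 6 members were called higher in the time series, where 18.7% of all genes were. Endothelial markers in these livers summed to 74.8 to 88.1 CPM in ctrl. and 149 to 179 CPM in cal. res. mice. Stellate cell markers summed to 82.5 to 118 CPM in ctrl. and 211 to 258 CPM in cal. res. mice. Hepatocyte markers summed to 88600 to 109000 CPM in ctrl. and 171000 to 180000 CPM in cal. res. mice. The part of these markers in this contrast was not tested.

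The CORT experiment gave ctrl.-fed mice a week of corticosterone. *Slc25a15* measured 246, 237 and 256 CPM in the 3 vehicle livers and 455, 467 and 391 CPM in the 3 CORT livers. *Nags* measured 78.4, 70.6 and 76.1 CPM with vehicle and 50.7, 42.8 and 43.9 CPM with CORT. *Otc* measured 465, 405 and 456 CPM with vehicle and 331, 316 and 348 CPM with CORT. The carrier was higher, and *Nags* and *Otc* were lower, in all 3 CORT livers than in all 3 vehicle livers. The log2 fold change of *Slc25a15* was 0.83 (SE 0.101, edgeR adjusted p = 0.00564), that of *Nags* -0.71 (SE 0.0981, edgeR adjusted p = 0.00953) and that of *Otc* -0.41 (SE 0.0954, edgeR adjusted p = 0.0431). The *Otc* call did not survive the removal of any of the 6 mice in turn, which gave edgeR adjusted p from 0.0578 to 0.135, and it was also lost without the filter on low counts (0.0604).

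The other 3 members overlapped between the CORT and vehicle livers. *Cps1* measured 4956, 3969 and 4036 CPM with vehicle and 3682, 5470 and 3947 CPM with CORT. *Ass1* measured 4062, 2808 and 3675 CPM with vehicle and 3257, 3838 and 3094 CPM with CORT. The highest *Cps1* and *Ass1* values among the CORT livers both belonged to replicate 2. *Asl* measured 803, 689 and 842 CPM with vehicle and 689, 834 and 651 CPM with CORT, where replicate 2 was again the highest of the CORT livers. Their log2 fold changes were 0.02 for *Cps1* (edgeR adjusted p = 0.972), -0.05 for *Ass1* (0.886) and -0.10 for *Asl* (0.679). Of the 6 members 3 were called, where 8.11% of the 11523 genes tested were. Of these, 1 was called higher, where 4.47% of all genes were, and 2 were called lower, where 3.64% were. The groups did not overlap for 3 members and for 32.9% of all genes. The median log2 fold change was -0.076 over the members and -0.00668 over all genes. The diet and the CORT experiments hold separate mice and were scaled apart, and the difference between their effects was not tested.

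In the CORT experiment all 7 GR target genes were called higher, with a median log2 fold change of 1.81, led by *Fkbp5* (2.63, edgeR adjusted p = 0.00797), *Pck1* (2.62, 0.0124) and *Per1* (2.04, 0.00247). Of 12 genes that supply nitrogen *Got1* was called (1.98, edgeR adjusted p = 0.0161), with a list median of 0.0872. Of 9 genes that use arginine or ornithine the arginine carrier *Slc7a2* was higher (1.95, edgeR adjusted p = 0.00307) and *Gatm* (-0.95, 0.0487) and *Odc1*, ornithine decarboxylase (-0.57, 0.0166), were lower. Of 4 transporters *Slc38a2* was called (2.80, edgeR adjusted p = 0.000665). Of 10 regulators 4 were called higher, led by *Cebpb* (2.04, edgeR adjusted p = 0.00128), *Foxo1* (1.29, 0.00303) and *Klf15* (1.18, 0.00288), and *Foxa2* (-1.22, 0.0282) and *Cebpa* (-0.68, 0.02) were lower. *Nr3c1* measured 74.2, 77.5 and 69.5 CPM with vehicle and 61.7, 83.9 and 66.0 CPM with CORT (log2 fold change -0.06, edgeR adjusted p = 0.808). Endothelial markers summed to 95.1, 102 and 120 CPM with vehicle and 77.0, 85.9 and 92.0 CPM with CORT, with 1 of 6 called lower, *Clec4g* the most abundant and none at 0. Kupffer cell and macrophage markers summed to 63.5, 81.1 and 86.1 CPM with vehicle and 90.7, 126 and 105 CPM with CORT, with 2 of 7 called higher, *Clec4f* the most abundant and none at 0. Neutrophil markers summed to 0.0718, 0.622 and 0.618 CPM with vehicle and 2.27, 1.99 and 1.57 CPM with CORT. The most abundant of them was *S100a9*, and *Ly6g* and *Mpo* were at 0. Periportal hepatocyte markers summed to 4310, 3000 and 3910 CPM with vehicle and 7700, 9090 and 7350 CPM with CORT, with 2 of 8 called higher and 1 lower and none at 0. The most abundant of them is *Pck1*, which is also on the list of GR targets. Erythroid markers summed to 662, 595 and 748 CPM with vehicle and 312, 531 and 286 CPM with CORT, with *Hbb-bs* the most abundant and none at 0. Of the 4 erythroid markers tested edgeR called 0, although all 4 were lower at an unadjusted edgeR p under 0.05 (0.0178 to 0.0394). Of all genes 26% had such a p in either direction. The part of these markers in the changes of *Slc25a15*, *Nags* and *Otc* was not tested.

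The genotype comparisons ask which members depend on GR in hepatocytes. *Nr3c1*, the targeted gene, measured 69.9 CPM in the lowest, 93.6 in the median and 112 in the highest of 18 cal. res. WT livers, against 21.3, 24.9 and 32.1 CPM in 18 cal. res. GR LKO livers. In ctrl. livers it measured 72.0, 87.2 and 119 CPM in 22 WT mice and 16.1, 21.6 and 29.2 CPM in 20 GR LKO mice. No GR LKO liver reached the lowest WT liver in either diet, and reads from other cells and from exons outside the deleted part still count toward the gene. The mean log2 fold change over the 6 time points was -1.84 under cal. res. (SE 0.0352, edgeR adjusted p = 1.01e-24) and -1.96 under ctrl. (SE 0.0473, edgeR adjusted p = 5.13e-26).

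At ZT12 under cal. res., 4 members were lower in GR LKO livers. *Cps1* measured 6907, 8495 and 8050 CPM in WT and 5023, 4401 and 4218 CPM in GR LKO livers. *Slc25a15* measured 428, 545 and 518 CPM in WT and 278, 314 and 342 CPM in GR LKO livers. *Ass1* measured 7688, 5662 and 7327 CPM in WT and 3458, 4802 and 4008 CPM in GR LKO livers. For all 3 genes every GR LKO liver was below every WT liver. *Asl* measured 1317, 1194 and 1490 CPM in WT and 510.1, 686 and 516 CPM in GR LKO livers, again with every GR LKO liver below every WT liver. *Otc* measured 448, 530 and 506 CPM in WT and 507, 517 and 489 CPM in GR LKO livers, and *Nags* 59.3, 45.2 and 56.1 CPM in WT and 48.8, 63.1 and 55.4 CPM in GR LKO livers, with overlap for both.

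The log2 fold change of GR LKO over WT at this time was -1.23 for *Asl* (SE 0.143, edgeR adjusted p = 0.0022) and -0.79 for *Cps1* (SE 0.106, edgeR adjusted p = 0.00408). It was -0.76 for *Ass1* (SE 0.156, edgeR adjusted p = 0.0194) and -0.68 for *Slc25a15* (SE 0.123, edgeR adjusted p = 0.0122), and near 0 for *Otc* (0.02, edgeR adjusted p = 0.884) and *Nags* (0.05, 0.824). Thus 4 of 6 members were called lower, where 7.84% of all genes tested were called lower, and 4 did not overlap, where 36.9% of all genes did not. The median log2 fold change was -0.719 over the members and -0.0041 over all genes. Without WT replicate 3, the liver with exocrine pancreas transcripts, the values were -1.15 for *Asl* (edgeR adjusted p = 0.0105), -0.77 for *Cps1* (0.0198), -0.65 for *Slc25a15* (0.0466) and -0.72 for *Ass1* (0.0658), so that 3 members were called. The *Ass1* call was also lost without WT replicate 1 (edgeR adjusted p = 0.0539), without GR LKO replicate 1 (0.0523) or without GR LKO replicate 3 (0.0655).

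At the same time point 4 of 7 hepatocyte markers were called lower in GR LKO livers, and they summed to 177000, 171000 and 180000 CPM in WT and 138000, 147000 and 130000 CPM in GR LKO livers. Of the Kupffer cell and macrophage markers 3 of 7 were called higher, and they summed to 39.5, 63.8 and 46.5 CPM in WT and 110, 90.1 and 115 CPM in GR LKO livers, with *Clec4f* the most abundant and none at 0. Of the endothelial markers 1 of 6 was called higher, and they summed to 163, 149 and 179 CPM in WT and 212, 198 and 220 CPM in GR LKO livers, with *Clec4g* the most abundant and none at 0. Of the periportal hepatocyte markers 3 of 8 were called lower, and they summed to 9880, 10100 and 11100 CPM in WT and 7590, 8970 and 8330 CPM in GR LKO livers, with *Pck1* the most abundant and none at 0. Of the pericentral hepatocyte markers 3 of 7 were called lower, and they summed to 15100, 17200 and 16200 CPM in WT and 12200, 12500 and 12900 CPM in GR LKO livers, with *Cyp2e1* the most abundant and none at 0. The part of these markers in the lower level of the urea cycle genes was not tested. Of 7 GR target genes 6 were called lower, of 10 regulators 5 lower, with the targeted *Nr3c1* among them, and 2 higher, and of 12 nitrogen supply genes 4 lower and 1 higher. Of all 11759 genes tested 922 were called lower at this time, and calls in both directions together are counted at the end.

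Over the whole cal. res. day, *Asl* and *Cps1* differed most between genotypes. Of all genes, the genotypes were apart for 20.5%, 21.4%, 24.7%, 36.9%, 25% and 26.8% from ZT0 to ZT20, against which the counts of time points below are to be read. *Asl* measured 466 CPM in the lowest, 662 in the median and 1490 in the highest of 18 WT mice, and 317, 402 and 686 CPM in 18 GR LKO mice. *Cps1* measured 5442, 6799 and 9709 CPM in WT and 4194, 4791 and 7953 CPM in GR LKO mice. Within each of the 6 time points, no GR LKO liver reached a WT liver for either gene, although the ranges over the whole day overlapped. *Ass1* measured 4366, 5067 and 7688 CPM in WT and 3391, 3999 and 5641 CPM in GR LKO mice, and *Slc25a15* 215, 359 and 658 CPM in WT and 192, 283 and 556 CPM in GR LKO mice. These 2 genes were apart at 3 of 6 time points each. *Nags* measured 45.2, 62.9 and 92.1 CPM in WT and 41.3, 55.03 and 77.6 CPM in GR LKO mice, apart at 1 time point, ZT20. *Otc* measured 390, 427 and 530 CPM in WT and 372, 478 and 542 CPM in GR LKO mice, where GR LKO was the higher genotype by the fitted change at 5 of 6 time points, and apart from WT, above it, at ZT16.

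The mean log2 fold change over the 6 time points under cal. res. was -0.74 for *Asl* (SE 0.059, edgeR adjusted p = 1.13e-10) and -0.47 for *Cps1* (SE 0.0559, edgeR adjusted p = 1.8e-07). It was -0.33 for *Ass1* (SE 0.0584, edgeR adjusted p = 5.56e-05), -0.29 for *Slc25a15* (SE 0.058, edgeR adjusted p = 0.000329) and -0.22 for *Nags* (SE 0.0531, edgeR adjusted p = 0.00196). For *Otc* it was 0.11 (SE 0.0424, edgeR adjusted p = 0.0522), and this gene was called higher on leaving out any 1 of 8 of the 36 mice, with edgeR adjusted p from 0.00987 to 0.0499. In all, 5 of 6 members were called lower, where 17.3% of the 13041 genes tested were, and the median was -0.31 over the members and 0.00104 over all genes. Without the liver with exocrine pancreas transcripts 5 members were called too, with -0.73 for *Asl* (edgeR adjusted p = 4.33e-10) and -0.47 for *Cps1* (3.96e-07).

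At single time points under cal. res. other than ZT12, *Asl* was the member that passed the test, at ZT8 (-0.62, edgeR adjusted p = 0.0229) and ZT16 (-0.84, 0.0276). The members called lower were thus 1 of 6 at ZT8 and 1 of 6 at ZT16, where 1.38% and 2.02% of all genes were called lower. The groups were apart for 4 of 6 members at ZT8 and 3 of 6 at ZT16, where 24.7% and 25% of all genes were. At ZT0, ZT4 and ZT20 edgeR called 0 of 6 members, where it called 0.502%, 0.69% and 1.47% of all genes. Unadjusted p was under 0.05 for 5, 1 and 2 members at these times, against 13.2%, 14.6% and 19.4% of all genes. DESeq2 called 4, 1 and 2 members, and 434, 440 and 686 of all genes. The groups were apart for 4, 2 and 3 of 6 members there, against 20.5%, 21.4% and 26.8% of all genes. The fitted change was negative for 6 of 6 members at ZT0, and for 5 of 6 at ZT4, ZT8, ZT16 and ZT20. The call of *Asl* at ZT8 was lost without 4 of the 6 mice in turn (edgeR adjusted p from 0.0505 to 0.127), and that at ZT16 without 4 of 6 (0.0755 to 0.102). *Slc25a15* was called at ZT0 without GR LKO replicate 1 (edgeR adjusted p = 0.0473), and *Asl* at ZT20 without GR LKO replicate 3 (0.0355). At ZT8 hepatocyte markers summed to 125000 to 151000 CPM in WT and 118000 to 123000 CPM in GR LKO livers. Periportal markers summed there to 4550 to 7110 and 3260 to 4470 CPM, and endothelial markers to 152 to 166 and 191 to 205 CPM. At ZT16 hepatocyte markers summed to 147000 to 158000 CPM in WT and 115000 to 145000 CPM in GR LKO livers. The part of these markers in the *Asl* calls was not tested.

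**Figure D2:**
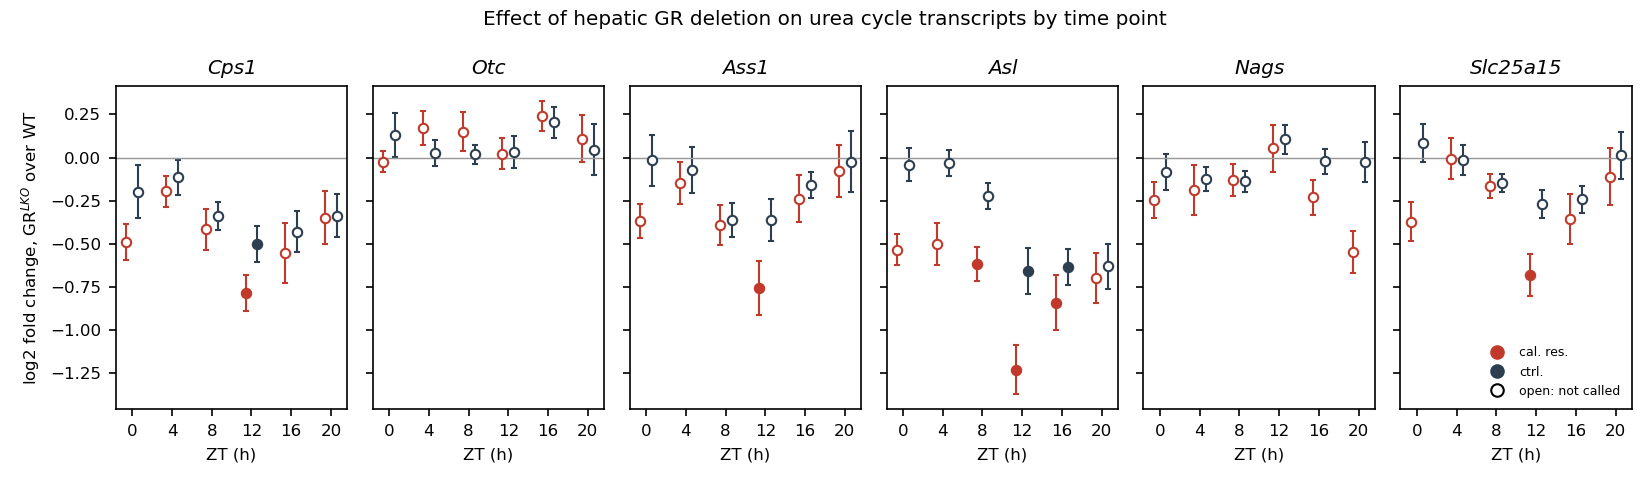
Log2 fold change of GR LKO over WT (vertical axis) at each zeitgeber time (horizontal axis, in hours) for the 6 members, with cal. res. in red and ctrl. in blue; bars are standard errors, filled points were called by edgeR and open points were not. *Cps1*, *Ass1* and *Asl* lie below 0 at all 6 time points in both diets, and *Otc* is not called at any.

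In ctrl. livers the genotypes were apart for 22%, 15.9%, 7.3%, 8.36%, 16.9% and 11.6% of all genes from ZT0 to ZT20. *Asl* measured 365, 652 and 1050 CPM (lowest, median, highest) in 22 WT mice and 334, 449 and 746 CPM in 20 GR LKO mice. *Cps1* measured 4157, 4881 and 5831 CPM in WT and 2810, 3804 and 5058 CPM in GR LKO mice. Within a time point, the groups were apart at 4 of 6 time points for *Asl* and at 4 for *Cps1*. *Ass1* measured 3338, 3967 and 4865 CPM in WT and 2400, 3488 and 5127 CPM in GR LKO mice, apart at 1 time point. *Slc25a15* measured 227, 296 and 386 CPM in WT and 197, 281 and 406 CPM in GR LKO mice, apart at 2. *Nags* measured 53.2, 71.3 and 85.9 CPM in WT and 49.0, 66.1 and 84.8 CPM in GR LKO mice, and *Otc* 391.9, 506 and 584 CPM in WT and 375, 528 and 648 CPM in GR LKO mice. These last 2 genes were apart at 1 time point each, *Nags* at ZT4 with GR LKO lower and *Otc* at ZT16 with GR LKO higher.

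The mean log2 fold change over the ctrl. time points was -0.37 for *Asl* (SE 0.0459, edgeR adjusted p = 2.17e-07), -0.32 for *Cps1* (SE 0.0473, edgeR adjusted p = 5.19e-06) and -0.17 for *Ass1* (SE 0.0559, edgeR adjusted p = 0.035). It was -0.10 for *Slc25a15* (edgeR adjusted p = 0.0803), -0.05 for *Nags* (0.416) and 0.08 for *Otc* (0.234). Thus 3 of 6 members were called lower, where 8.59% of the 12834 genes tested were, with a median of -0.13 over the members and -0.00354 over all genes. The *Ass1* call was lost on leaving out any 1 of 9 of the 42 mice (edgeR adjusted p from 0.0512 to 0.0673) and without the filter on low counts (0.0568). *Slc25a15* was called without GR LKO replicate 1 at ZT20, the liver that stood apart by its markers (edgeR adjusted p = 0.0118), or without WT replicate 4 at ZT20 (0.0387) or WT replicate 3 at ZT4 (0.0448).

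At ZT12 in ctrl. livers *Cps1* measured 4972, 4508, 4483 and 4897 CPM in 4 WT and 2810, 3305, 3345 and 3820 CPM in 4 GR LKO mice. *Asl* measured 946, 816, 740 and 765 CPM in WT and 438, 485, 642 and 502 CPM in GR LKO mice. Both genes were lower in every GR LKO liver than in every WT liver, and GR LKO replicate 3 was the highest of its group for *Asl*. The log2 fold change was -0.50 for *Cps1* (edgeR adjusted p = 0.044) and -0.66 for *Asl* (0.0397), so 2 of 6 members were called lower against 1.27% of all genes, and 3 were apart against 8.36%. The *Cps1* call was lost without 7 of the 8 mice in turn (edgeR adjusted p from 0.0842 to 0.111) and kept without GR LKO replicate 4 (0.0292). That of *Asl* was lost without 7 of 8 (edgeR adjusted p from 0.0692 to 0.113) and kept without GR LKO replicate 3 (0.0114). Of the periportal hepatocyte markers 1 of 8 was called lower at this time, and they summed to 7500, 7950, 7650 and 7650 CPM in WT and 5760, 4660, 4500 and 4210 CPM in GR LKO livers, apart as the 2 members were, with *Pck1* the most abundant and none at 0. Of the 7 pericentral markers edgeR called 0, with 4 at an unadjusted p under 0.05, and they summed to 11000 to 11600 CPM in WT and 9590 to 13300 CPM in GR LKO livers, with *Cyp2e1* the most abundant and none at 0. Of the 7 hepatocyte markers *Apoa1* (-0.65, edgeR adjusted p = 0.0269) and *Hnf4a* (-0.48, 0.037) were called lower and none higher. The hepatocyte markers summed to 88600 to 109000 CPM in WT and 74100 to 94100 CPM in GR LKO livers. The part of these markers in the lower level of *Cps1* and *Asl* was not tested.

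At ZT16 in ctrl. livers *Asl* measured 1050, 911, 997 and 1014 CPM in 4 WT and 592, 746 and 578 CPM in 3 GR LKO mice. All 3 GR LKO livers were below all 4 WT livers, with a log2 fold change of -0.64 (edgeR adjusted p = 0.0269). *Asl* was the 1 of 6 members called lower, where 0.947% of all genes were, and 4 were apart, where 16.9% of all genes were. Without WT replicate 2, the ctrl. liver with exocrine pancreas transcripts, the value was -0.68 (edgeR adjusted p = 0.0552), and 0 members were called. The *Asl* call was lost without 6 of the 7 mice in turn (edgeR adjusted p from 0.0517 to 0.0881). Hepatocyte markers at ZT16 summed to 95900 to 105000 CPM in WT and 79400 to 92400 CPM in GR LKO livers. Endothelial markers summed to 106 to 111 CPM in WT and 81.6 to 104 CPM in GR LKO livers. These sums were apart as *Asl* was, and their part in its lower level was not tested. In ctrl. livers edgeR called 0 of 6 members at ZT0, ZT4, ZT8 and ZT20, where it called 0.536%, 0.195%, 1.43% and 0.42% of all genes. Unadjusted p was under 0.05 for 0, 0, 4 and 2 members at these times, against 15.3%, 9.75%, 11.2% and 11.3% of all genes. DESeq2 called 0, 0, 2 and 1 members, and 407, 195, 369 and 297 of all genes. The groups were apart for 0, 1, 3 and 2 of 6 members, where 22%, 15.9%, 7.3% and 11.6% of all genes were.

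Some other genes of nitrogen metabolism were called by genotype, and no test was made of whether these lists hold more calls than all genes do. Of all genes tested 17.3% were called lower and 15.6% higher over the cal. res. day, and 8.59% lower and 10% higher over the ctrl. day. Over the cal. res. day 3 of 13 nitrogen supply genes were called lower, *Glul* (-0.61, edgeR adjusted p = 2.19e-08), *Got1* (-0.51, 0.000509) and the aspartate/glutamate carrier *Slc25a12* (-0.30, 7.8e-06), with a list median of -0.0284. Of 10 arginine and ornithine genes *Slc7a2* (0.32, edgeR adjusted p = 0.00708), *Gamt* (0.28, 0.00283) and *Agmat* (0.17, 0.0117) were called higher and *Slc25a29* (-0.45, 0.00493) lower, and of 5 transporters *Slc38a3* (0.36, edgeR adjusted p = 0.0135) higher and *Slc38a2* (-0.66, 1.12e-07) lower. Of 10 regulators 6 were called lower, *Nr3c1* among them, with *Cebpb* (-0.52, edgeR adjusted p = 0.000196) and *Klf15* (-0.47, 0.00221) next in size. Of 7 GR targets 6 were called lower, led by *Fkbp5* (-1.65, edgeR adjusted p = 1.2e-11), *Per1* (-1.11, 2.68e-07) and *Tsc22d3* (-0.75, 1.79e-11). Over the ctrl. day 2 of 12 nitrogen supply genes were called lower, *Glul* (-0.26, edgeR adjusted p = 0.0293) and *Slc25a12* (-0.24, 0.000138), and *Gpt2* higher (0.19, 0.0124). Of 10 arginine and ornithine genes edgeR called 0 there, with 1 at an unadjusted p under 0.05, and of 4 transporters *Slc38a2* was called lower (-0.49, edgeR adjusted p = 0.000169). Of 10 regulators 4 were called lower, with *Klf15* (-0.34, edgeR adjusted p = 0.000808) and *Hnf4a* (-0.22, 0.000228) next to *Nr3c1*, and of 7 GR targets 5, led by *Fkbp5* (-1.11, edgeR adjusted p = 5.34e-10), *Per1* (-0.82, 0.00014) and *Tsc22d3* (-0.66, 7.51e-06).

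Cell type markers differed between genotypes over the day as well. Under cal. res. 6 of 6 endothelial markers were called higher, and they summed to 168, 204 and 237 CPM (lowest, median, highest) in 18 GR LKO mice, beside the 149, 171 and 212 CPM in WT mice given above, with *Clec4g* the most abundant and none at 0. Of the hepatocyte markers 3 of 7 were called lower, summing to 112000, 121000 and 150000 CPM in GR LKO mice. Of 8 periportal markers 4 were called lower and 2 higher, and of 7 pericentral markers 3 were called lower. Under ctrl. 5 of 7 hepatocyte, 5 of 8 periportal and 3 of 7 pericentral markers were called lower. Of the 6 endothelial and the 7 Kupffer cell markers edgeR called 0 under ctrl., with 2 and 0 at an unadjusted p under 0.05. The part of these markers in the lower level of the urea cycle genes was not tested.

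Whether the effect of genotype differed between the diets was tested on the difference itself, in which a constant shift between the diets' libraries drops out. For *Asl*, the mean effect of genotype was lower under cal. res. by -0.37 on the log2 scale (SE 0.0743, edgeR adjusted p = 0.00138). For the other members this difference ran from -0.19 for *Slc25a15* (edgeR adjusted p = 0.133) to 0.03 for *Otc*. Thus 1 of 6 members was called lower, where 2.02% of the 13376 genes tested were, and unadjusted p was under 0.05 for 5 members, against 15.9% of all genes. *Slc25a15* was called without cal. res. GR LKO replicate 3 at ZT20 (edgeR adjusted p = 0.045). At ZT12 alone edgeR called 0 of 6 members (3 at an unadjusted p under 0.05, against 15.9% of all genes), where it called 3.01% of all genes, although the difference for *Asl* was -0.56 (SE 0.176, edgeR adjusted p = 0.0618). Here DESeq2 called 1 member and 573 of all genes, and *Asl* was called by edgeR without cal. res. GR LKO replicate 2 (0.0241), ctrl. WT replicate 1 (0.0394) or ctrl. GR LKO replicate 1 (0.044) at ZT12, or without ctrl. GR LKO replicate 1 at ZT20 (0.0472).

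Whether the effect of genotype changed over the day was tested across the 6 time points of a diet. Under ctrl. it changed for *Asl* (edgeR adjusted p = 0.0259), and 1 of 6 members was called against 0.6% of all genes. This call was lost on leaving out any 1 of 8 of the 42 mice (edgeR adjusted p from 0.05 to 0.0633). Under cal. res. edgeR called 0 of 6 members, where it called 5.34% of all genes, with 3 members at an unadjusted p under 0.05 (20.4% of all genes) and 1 called by DESeq2 (1314 of all genes).

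Several members followed the time of day, and some shared the hour of their highest mean. In cal. res. WT livers *Asl* rose from a mean of 510.5 CPM at ZT4 to 1334 CPM at ZT12, the hour of feeding. *Slc25a15* went from 219 CPM at ZT8 to 599 CPM at ZT16, and *Nags* from 53.3 CPM at ZT8 to 84.9 CPM at ZT16, a few hours after the meal. *Cps1* went from 5969 CPM at ZT4 to 8783 CPM at ZT20, and *Ass1* from 4708 CPM at ZT20 to 6892 CPM at ZT12. *Otc* stayed between means of 400.3 CPM at ZT16 and 495 CPM at ZT12. The ratio of the highest to the lowest mean was 2.73 for *Slc25a15*, 2.61 for *Asl* and 1.24 for *Otc* as the smallest of the 6. In ctrl. WT livers this ratio was 2.44 for *Asl*, with the highest mean of 993 CPM at ZT16, and 1.46 for *Slc25a15*, with the highest mean of 346 CPM at ZT20. Marker sums of cal. res. WT livers also differed between ZT4 and ZT12. Hepatocyte markers summed to 123000 to 146000 and 171000 to 180000 CPM, and periportal ones to 3830 to 5400 and 9880 to 11100 CPM. Pericentral markers summed to 8070 to 10500 and 15100 to 17200 CPM, and Kupffer cell and macrophage markers to 111 to 233 and 39.5 to 63.8 CPM. The part of these markers in the daily changes of the members was not tested.

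**Figure D3:**
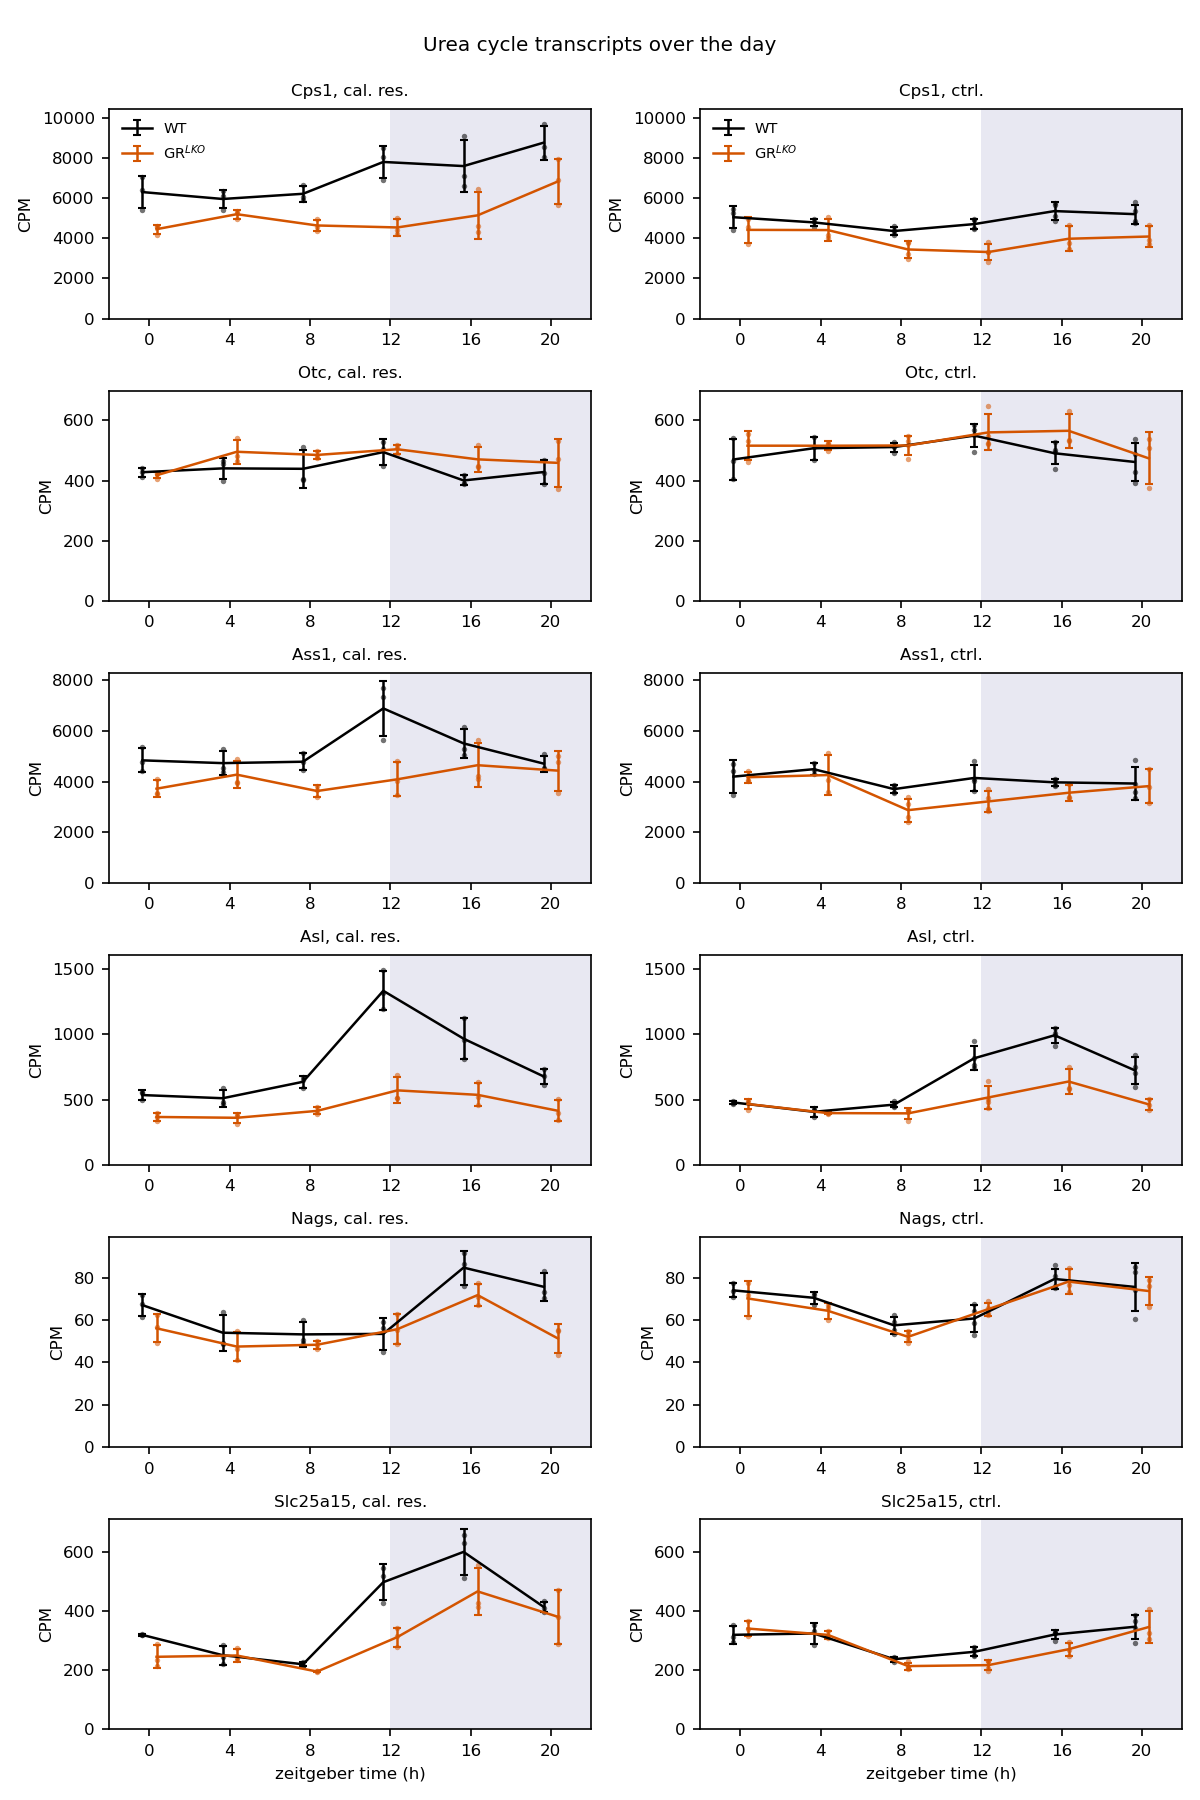
CPM (vertical axis, from 0) of the 6 members by zeitgeber time (horizontal axis, in hours) in cal. res. and ctrl. livers, WT in black and GR LKO in orange; points are single livers, lines join group means, bars are SD and the dark phase is shaded. *Asl* peaks at 1334 CPM in cal. res. WT livers at ZT12 and at 571 CPM in GR LKO livers at the same time.

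Rhythms were tested with JTK_CYCLE at a period of 24 h on variance-stabilised values, with Benjamini-Hochberg adjustment over all genes. In cal. res. WT livers 4 of 6 members were rhythmic, where 27.9% of all genes were: *Asl* (phase ZT12, JTK adjusted p = 0.00481), *Slc25a15* (ZT16, 0.00145), *Nags* (ZT20, 0.0172) and *Cps1* (ZT16, 0.043). In ctrl. WT livers the same number of members was rhythmic, where 32.3% of all genes were: *Asl* (ZT16, JTK adjusted p = 6.94e-07), *Slc25a15* (ZT20, 0.000737), *Nags* (ZT20, 0.00235) and *Cps1* (ZT20, 0.0101). In cal. res. GR LKO livers 3 of 6 were rhythmic, against 25.6% of all genes: *Asl* (ZT12, JTK adjusted p = 0.00893), *Slc25a15* (ZT16, 0.0186) and *Nags* (ZT16, 0.0467). In ctrl. GR LKO livers 5 of 6 were, against 28.4% of all genes: *Slc25a15* (ZT0, JTK adjusted p = 0.000724), *Nags* (ZT20, 0.00126), *Asl* (ZT16, 0.00162), *Cps1* (ZT0, 0.0362) and *Ass1* (ZT0, 0.0437). *Otc* was not called rhythmic in any of these arms. Some of these calls rested on single mice: that of *Cps1* in cal. res. WT livers was lost on leaving out any 1 of 13 of the 18 mice (JTK adjusted p from 0.0599 to 0.0996), and that of *Nags* in cal. res. GR LKO livers on leaving out any 1 of 13 of the 18 mice (0.0537 to 0.13). That of *Slc25a15* in cal. res. GR LKO livers was lost without replicate 3 at ZT16 (JTK adjusted p = 0.0559), and *Ass1* was called in cal. res. WT livers without replicate 3 at ZT0 (0.0315). In ctrl. GR LKO livers that of *Cps1* was lost on leaving out any 1 of 12 of the 20 mice (JTK adjusted p from 0.0521 to 0.0973) and that of *Ass1* on leaving out any 1 of 15 of the 20 mice (0.0521 to 0.0835), and without replicate 1 at ZT20, which stood apart by its markers, both were lost and 3 members were rhythmic.

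The difference between rhythms was tested with limma as an interaction of group with the cosine and sine of time. Between the diets in WT livers, where a constant shift between library batches drops out but other batch effects cannot be told apart from diet, 3 of 6 members differed, against 26.6% of all genes. For *Slc25a15* the fitted amplitude on the variance-stabilised log2 scale was 0.256 under ctrl. and 0.667 under cal. res., and the fitted peak lay at ZT21.3 and ZT16.4 (limma adjusted p = 8.36e-06). For *Asl* the amplitudes were 0.665 and 0.64, with peaks at ZT15.8 and ZT13.7 (limma adjusted p = 0.00519). Both members thus peaked earlier in the fit under cal. res. than under ctrl. For *Ass1* the amplitudes were 0.0557 and 0.216 (limma adjusted p = 0.033), a call lost on leaving out any 1 of 6 of the 40 mice (0.0504 to 0.0794). *Cps1* (limma adjusted p = 0.116), *Nags* (0.202) and *Otc* (0.91) did not pass, and *Cps1* did without cal. res. WT replicate 2 at ZT16 (0.0313).

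Between the genotypes, the rhythm of *Asl* differed under ctrl., with an amplitude of 0.658 in WT and 0.285 in GR LKO livers (limma adjusted p = 0.0158). This was 1 of 6 members, where 0.366% of all genes were called. Under cal. res. limma called 0 of 6 members, where it called 0.652% of all genes, and the amplitude of *Asl* was 0.644 in WT and 0.342 in GR LKO livers (unadjusted p = 0.0182, limma adjusted p = 0.284). *Asl* was the 1 member with an unadjusted p under 0.05 there, and edgeR's F test of genotype by time called 0.

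Other livers that stood apart by their markers also carried some calls. Without cal. res. GR LKO replicate 1 at ZT20 *Otc* was called higher over the cal. res. day (edgeR adjusted p = 0.00987) and *Nags* was not called rhythmic in that arm (JTK adjusted p = 0.0639). Without ctrl. WT replicate 3 at ZT0 *Ass1* was not called for the mean genotype effect under ctrl. (edgeR adjusted p = 0.0569) or for the rhythm difference of the diets (limma adjusted p = 0.0631). Without cal. res. GR LKO replicate 2 at ZT0 *Nags* was not called rhythmic in that arm (JTK adjusted p = 0.0538), and the calls of the other members stayed.

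Across the 24 group means of the time series, each taken relative to its diet's mean so that the constant difference between the diets is removed, the members varied together to different degrees. Pearson's r of log2 CPM was 0.771 between *Cps1* and *Ass1*, 0.71 between *Nags* and *Slc25a15* and 0.705 between *Ass1* and *Slc25a15*, while it was 0.386 between *Ass1* and *Nags*. *Otc* had a negative r with each other member, from -0.0476 with *Asl* to -0.506 with *Nags*. These 24 points share libraries, time points and genotypes, and r is given as a description. Among 8873 genes, those most like *Asl* were *Fmo5* (0.954), *Dst* (0.947) and *Ctif* (0.925). For *Cps1* they were *Ppip5k2* (0.882), *Sfxn2* (0.88) and the clotting factor *F9* (0.877), and for *Ass1* they were *Ppip5k2* (0.851), *Aass* (0.841) and *Amy1* (0.821). For *Nags* they were *Trmt1l* (0.909), *Mrpl34* (0.903) and *Slc25a45* (0.896), for *Slc25a15* *Prkar2a* (0.897), *Gfm1* (0.896) and *Eloa* (0.895), and for *Otc* *Pmpcb* (0.864), *Pgrmc1* (0.85) and *Pgm1* (0.848).

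The 6 genes lie on 6 chromosomes. In the GENCODE annotation of mouse build GRCm38, *Cps1* (ENSMUSG00000025991) spans chr1:67123026-67231259 with 38 exons, *Otc* (ENSMUSG00000031173) chrX:10252305-10321024 with 10, and *Ass1* (ENSMUSG00000076441) chr2:31470207-31520672 with 16. *Nags* (ENSMUSG00000048217) spans chr11:102145513-102149477 with 7 exons on the forward strand, as do the 3 before it. On the reverse strand lie *Asl* (ENSMUSG00000025533, chr5:130011258-130029247, 16 exons) and *Slc25a15* (ENSMUSG00000031482, chr8:22375551-22398597, 7 exons). Promoters from RefSeq (build GRCm38.p6) were at hand for 4 of the 6 members, *Otc*, *Ass1*, *Nags* and *Slc25a15*, and entries for *Cps1* and *Asl* were not used here. Windows of 300 bases were searched on both strands for the letters TGTTCT (part of the GR binding site, in 19% of all 32851 promoters), TTGCNNAA (C/EBP, 10.8%), TGTTTAC (forkhead, 3.65%), CACGTG (E-box, 7.15%) and TGACGTCA (cAMP response element, 1.79%). The 250 bases before the RefSeq start are printed for *Ass1*, which rose most in the diet experiment, and for *Slc25a15* and *Nags*. These last 2 moved in opposite directions with CORT. In this order, the bases are from chr2:31470020-31470269 (forward strand), chr8:22398622-22398871 (reverse strand) and chr11:102145263-102145512 (forward strand). The E-box of *Ass1* at chr2:31470234-31470239 is in capitals. The GENCODE start of *Ass1* given above lies before this E-box and the RefSeq start after it. *Slc25a15* has a second RefSeq window, chr8:22398228-22398527, which is not printed and holds an E-box at chr8:22398349-22398354. The printed window of *Slc25a15* and the windows of *Nags* and *Otc* hold none of these letters, and a match or its absence describes the letters in the window and nothing about a factor.
Ass1: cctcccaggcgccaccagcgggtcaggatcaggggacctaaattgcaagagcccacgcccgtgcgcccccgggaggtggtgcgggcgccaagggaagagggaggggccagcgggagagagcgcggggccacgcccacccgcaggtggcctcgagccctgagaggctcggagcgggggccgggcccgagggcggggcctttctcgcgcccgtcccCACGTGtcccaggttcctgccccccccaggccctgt
Slc25a15: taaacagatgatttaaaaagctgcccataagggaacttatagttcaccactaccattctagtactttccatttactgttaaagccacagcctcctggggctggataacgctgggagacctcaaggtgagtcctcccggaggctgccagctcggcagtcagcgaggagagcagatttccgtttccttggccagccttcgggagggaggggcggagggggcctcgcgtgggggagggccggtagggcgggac
Nags: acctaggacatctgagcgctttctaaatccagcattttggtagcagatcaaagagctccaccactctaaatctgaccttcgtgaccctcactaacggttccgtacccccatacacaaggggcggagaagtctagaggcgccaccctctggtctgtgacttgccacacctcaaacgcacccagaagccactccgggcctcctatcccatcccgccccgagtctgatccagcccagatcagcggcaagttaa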

How the data were processed

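The liver RNA of 90 mice was measured by bulk RNA-seq of polyA RNA. The deposited records name a TruSeq v2 kit, which keeps no strand, and the study's methods also name a stranded guide, so the use of strand is not settled. The gene tables that the authors deposited hold estimated counts, and the submitters' processing notes name FastQC, MultiQC, Salmon, DESeq2 and mm10. The annotation behind the counts is not given in the sources used here, and a deposited table of variance-stabilised values with 6 columns was not used. Symbols were matched for 27244 of 27654 gene IDs, and the other 410 hold 0.107% of counts. *Nags* overlaps the antisense gene *Gm11586*, whose reads cannot be told apart if strand was not used, and the other 5 members overlap no gene of the GENCODE annotation (vM21).

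Groups follow the labels, replicates are separate mice, and none of the 102 pairs of libraries within a group were identical. Counts were rounded to whole numbers and tested in R 4.3.3 with edgeR 4.0.16 (quasi-likelihood fit, TMM scaling, filterByExpr at a minimum count of 10, Benjamini-Hochberg adjustment over all genes tested, calls under 0.05), in 20 comparisons that all 6 members entered. CPM are scaled by TMM within an experiment and are not comparable across experiments. Rhythms used JTK_CYCLE (exact null, period of 24 h) on variance-stabilised values from DESeq2 1.42.0, and differences of rhythms used limma 3.58.1. Intervals are 95% intervals of the fit. The edgeR, JTK_CYCLE and limma procedures were tested on simulated data. Alternatives were DESeq2, its size factors, no filter on low counts, the replicate number as a block, the time series libraries for the diet contrast, other rhythm tests and leaving out each mouse in turn.

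The members, 5 lists of related genes (nitrogen supply, arginine and ornithine use, transport, regulators, GR targets) and 12 lists of cell type markers were chosen with earlier results of these data known. 2 of the chosen genes, 1 of them a member, are not reported here, and the counts and medians leave them out. From each related list, up to 3 called genes per direction with the largest change are named in the diet, CORT and mean genotype comparisons. The genes most like a member are the 3 with the highest r among genes with a mean of at least 5 CPM.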

Additional observations from a re-analysis of the deposited data

Results flagged for a closer look

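A test of the difference itself set these results apart. The effect of genotype changed over the day for *Asl* under ctrl. (edgeR adjusted p = 0.0259), a call lost on leaving out any 1 of 8 mice. The mean effect of genotype on *Asl* differed between the diets (edgeR adjusted p = 0.00138). The rhythm of *Asl* differed between the genotypes under ctrl. (limma adjusted p = 0.0158). Between the diets in WT livers the rhythm differed for *Slc25a15* (limma adjusted p = 8.36e-06), *Asl* (0.00519) and *Ass1* (0.033), where diet and library batch cannot be told apart. The *Ass1* call was lost on leaving out any 1 of 6 mice (limma adjusted p from 0.0504 to 0.0794). It was also lost with the replicate number as a block (0.0581).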

How the results depend on the processing

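The direction of each member's change in the 2 experiments at ZT12 and in the mean genotype effects was kept by every alternative tool and scaling. Of the called changes only that of *Nags* with the diet turned, 0.40 in the diet experiment and -0.1766 in the time series, where diet and library batch cannot be told apart. Leaving out single mice turned 3 changes in these results that were not called: *Otc* with the diet (-0.1195 to 0.01672), and *Cps1* (-0.1821 to 0.1261) and *Ass1* (-0.1881 to 0.06795) with CORT. With the size factors of DESeq2 in edgeR none of the 120 calls changed. DESeq2 itself added 19 of 120 calls and lost none. Without the filter on low counts 2 of 138 calls were lost, and with the replicate number as a block 8 were lost and 1 was gained. The cause of these changes was not tested.

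The number of members called with DESeq2 (in parentheses with edgeR) was 4 (0) at ZT0, 1 (0) at ZT4, 3 (1) at ZT8, 2 (1) at ZT16 and 2 (0) at ZT20 for genotype under cal. res. Under ctrl. it was 2 (0) at ZT8, 3 (2) at ZT12, 3 (1) at ZT16 and 1 (0) at ZT20. Over the cal. res. mean it was 6 (5), with *Otc* called higher (DESeq2 adjusted p = 0.0392). For a genotype effect that changes over the day it was 1 (0) under cal. res., and for one that differs between the diets 1 (0) at ZT12.

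With the replicate number as a block, the members called fell to 0 for genotype at ZT8 under cal. res. (1 without the block) and at ZT12 (2) and ZT16 (1) under ctrl. In no comparison did all pairs that share a replicate number correlate by more than 0.1, and for ctrl. at ZT12 these correlations ran from -0.0305 to 0.134, so the number is not read as a pairing. At ZT0 under ctrl. all 3 numbers correlated best with their own (0.0632 to 0.185), which is a hint from the data and not from the design. The block ended the call of *Otc* with CORT (edgeR adjusted p = 0.0876) and that of *Ass1* at ZT12 under cal. res. (0.0743). At ZT16 under cal. res. it ended that of *Asl* (0.0765) and gained that of *Cps1* (0.0414), and it ended the rhythm difference of *Ass1* between the diets (limma adjusted p = 0.0581).

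Leaving out each mouse in turn gave these ranges of members called for genotype under cal. res.: 0 to 1 at ZT0, ZT8, ZT16 and ZT20. Under ctrl. they were 0 to 1 at ZT12 and ZT16. For the change over the day they were 0 to 1 under ctrl., for the difference between the diets 1 to 2 over the mean and 0 to 1 at ZT12. Rhythmic members numbered 1 to 3 in cal. res. GR LKO and 3 to 5 in ctrl. GR LKO livers.

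Without the livers with exocrine pancreas transcripts, members called were 3 for the mean genotype effect under ctrl. and 1 for its change over the ctrl. day, and without either liver 1 for its mean difference between the diets. They were 3 for rhythms in cal. res. WT (*Cps1* ended, JTK adjusted p = 0.0629) and 4 in ctrl. WT livers, and 1 for the rhythm difference of the genotypes under ctrl. For that of the diets they were 3 without the ctrl. and 2 without the cal. res. liver (*Ass1* ended, limma adjusted p = 0.0771). For the diet in the time series they were 4, with *Nags* at -0.2206, a fit chosen after seeing the data. For the other tests with these livers the 0 members called stayed 0.

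Of the other rhythm tests, the F test over time and the cosinor called *Ass1* in cal. res. WT livers (adjusted p = 0.00408 and 0.031). The F test called *Cps1* in cal. res. GR LKO livers (0.00716) and ended its call in ctrl. GR LKO livers (0.0508), and that of group by time called *Cps1* for the diets (0.0399).

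The number of all genes called moved further. Under cal. res. it was 61 at ZT0 (DESeq2 434, block 9), 83 at ZT4 (440, 13), 308 at ZT8 (697, 151), 541 at ZT16 (917, 287) and 178 at ZT20 (686, 76), and at ZT12 1795 (block 889), with 922 of the 1795 lower in GR LKO livers. Under ctrl. it was 63 at ZT0 (DESeq2 407, block 9), 23 at ZT4 (195, 1), 166 at ZT8 (369, 36), 238 at ZT12 (569, 101), 232 at ZT16 (634, 32) and 50 at ZT20 (297, 3). With CORT it was 935 (block 534), and for the change over the day 696 under cal. res. (DESeq2 1314) and 77 under ctrl. (248). The F test over time called 8123 genes in cal. res. WT (JTK_CYCLE 5195) and 7713 in cal. res. GR LKO livers (4850). The F test of group by time called 696 genes for genotype under cal. res. (limma 85), 77 under ctrl. (47) and 5202 for diet (3452).

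The least deep library holds 10057544 counts, and genes with few counts do not pass the filter: 11428 to 13376 genes entered the edgeR tests, all 6 members among them.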

Other observations

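Other cell types were looked at in the diet experiment as well. Of 4 cholangiocyte markers tested 2 were called higher in cal. res. livers, and the 5 listed summed to 46.7 to 49.0 CPM in ctrl. and 38.2 to 58.3 CPM in cal. res. livers, with *Spp1* the most abundant and *Epcam* at 0 in all. Of 4 erythroid markers 1 was called lower, and the sums ran from 432 to 1010 CPM in ctrl. and from 197 to 555 CPM in cal. res. livers. Of 4 lymphocyte markers 1 was called lower, with sums of 6.84 to 8.43 CPM in ctrl. and 4.85 to 6.21 CPM in cal. res. livers. Of 7 Kupffer cell and macrophage markers 1 was called lower. The 1 enterocyte marker tested, *Fabp2*, which hepatocytes can express too, was called lower and measured 103 to 119 CPM in ctrl. and 30.4 to 47.8 CPM in cal. res. livers. No neutrophil marker passed the filter on low counts, and of the exocrine pancreas markers 1 passed and edgeR called 0, with 0 at an unadjusted p under 0.05. The part of these markers in other results was not tested.

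In the genotype comparison over the cal. res. day, 1 marker each of the lymphocyte (4 tested), cholangiocyte (4), stellate cell (6), erythroid (4) and enterocyte (2) lists was called higher in GR LKO livers, where 15.6% of the 13041 genes tested were. Lymphocyte markers, with *Ptprc* the most abundant, summed to 2.1, 7.07 and 17.2 CPM (lowest, median, highest) in WT and 3.82, 7.16 and 26.4 CPM in GR LKO mice. Cholangiocyte markers, with *Spp1* the most abundant, summed to 26.3, 44.0 and 89.7 CPM in WT and 31.4, 55.9 and 105 CPM in GR LKO mice, and *Epcam* was at 0 in all WT mice. Stellate cell markers, with *Dcn* the most abundant, summed to 181, 232 and 300.3 CPM in WT and 169.7, 226 and 454 CPM in GR LKO mice. Erythroid markers, with *Hbb-bs* the most abundant, summed to 228, 366 and 1140 CPM in WT and 331, 435 and 3550 CPM in GR LKO mice. Enterocyte markers, with *Fabp2* the most abundant and *Sis* and *Alpi* at 0, summed to 18.3, 22.3 and 30.8 CPM in WT and 24.5, 31.9 and 49.1 CPM in GR LKO mice. Of the 7 Kupffer cell and macrophage markers edgeR called 0 over this day, with 3 at an unadjusted p under 0.05. The part of these markers in the urea cycle results was not tested.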
